A study of Mus musculus with 4 samples.

Results

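The proximal tubule reabsorbs most of what the glomerulus filters, and 42 genes of its endocytosis, brush border and metabolism were followed here in cells sorted by an Lgr5 reporter. The genes were given as a list by symbol, not picked by a threshold on these arrays, though with earlier results of these data known. Of the 42, 37 had a probe set annotated to that gene alone, out of 18820 genes measured this way. The other 5 are Ggt1, Tmem27, Ass1, Acsm3 and Gsta2. Where a gene had several such probe sets, the brightest by its mean was taken.

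Mouse metanephric kidneys were taken at about day 14 of gestation and cultured for about 10 days. All cells came from the knock-in mouse line B6.129P2-Lgr5tm1(cre/ERT2)Cle/J, in which the Lgr5 locus drives EGFP and CreERT2, so both sorted fractions carry the same allele and the fraction without GFP is a mixture of every kidney cell type that does not light up. There were 2 Affymetrix arrays of GFP-high cells, titled kidney A and kidney B, and 2 of GFP-negative cells, titled kidney B and kidney D. The arrays are called high-A, high-B, negative-B and negative-D below, and pairs of values are given in that order. The labels do not say whether a letter is an animal, a litter or a pool, so the spread behind each p-value is that among 4 arrays and may be technical.

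Proximal tubule cells take filtered proteins back through megalin and cubilin, giant receptors that sit between the microvilli together with the adaptor proteins that carry them into the cell. The microvilli form the brush border, a dense carpet built on actin bundles, linked at the tips by protocadherins and studded with peptidases that cut filtered peptides into amino acids. The cells also make glucose, guanidinoacetate and active vitamin D, conjugate acids to glycine, and excrete drugs. Most of these functions appear late, as the segment matures.

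Lgr5, whose locus drives the reporter, read 10.43 and 10.34 in GFP-high cells against 6.39 and 6.31. All values are the deposited log2 values, differences are GFP-high minus GFP-negative with their standard error, and a gene passed at a limma p below 0.05 after Benjamini-Hochberg adjustment over all 18820 genes. A gene counts as within background in a fraction if its mean there is at most 4.30, the 95th percentile of the single-array values of 990 olfactory receptor genes, a mark chosen after the data were seen.

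Of the 37 measured members 16 were lower in GFP-high cells, 1 was higher and 20 did not pass. Over all genes, 11.2% were lower and 8.08% higher. The median difference of the members was -0.46, against 0.05 for all genes. In 21 members both GFP-high arrays lay below both GFP-negative arrays, and in 4 both lay above, where all genes gave 24% and 33.2%. Of the 16 lower members 12 fell at least 2-fold and 6 more than 4-fold by the fitted difference, and 7 kept their call in each of 4 fits that drop 1 array (Lrp2, Dab2, Enpep, Vil1, Cdhr2, Glyat and Keg1). Of the 2100 lower genes over the whole set, 1143 fell at least 2-fold. How many of these 2100 kept their call in each of the 4 fits was not counted. Centring each array on its own median moves every gene's difference up alike, the median of all genes from 0.05 to 0.15. Lower calls over all genes then number 1889 in place of 2100 and higher calls 2122 in place of 1520, so that the share of lower calls is 47.1% in place of 58.0%, and 15 of the 16 members pass as lower.

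The members that fell more than 4-fold by the fitted difference were the endocytic genes Dab2 and Lrp2, the neighbours Glyat and Keg1, and the microvillus genes Cdhr2 and Vil1. They are not ranked among themselves, since Dab2 and Keg1 change order between fits and the GFP-high means of Glyat and Cdhr2 lie within background. Windows of 300 bases around the start of 5 members are printed: Lrp2, Glyat, Keg1 and Cdhr2 as leading members that fell together, and Pdzk1 because it holds a short motif of a proximal tubule regulator, in capitals. The motif searched on both strands was CAAAGTCCA, a form of the site of HNF4 factors. The sequences are RefSeq's, build GRCm38.p6, printed 5′ to 3′ on the strand of the gene. Lrp2 is at chr2:69585980-69586279, minus strand, Glyat at chr19:12633058-12633357, plus strand, Keg1 at chr19:12695540-12695839, plus strand, Cdhr2 at chr13:54701213-54701512, plus strand, and Pdzk1 at chr3:96829815-96830114, plus strand.
Lrp2: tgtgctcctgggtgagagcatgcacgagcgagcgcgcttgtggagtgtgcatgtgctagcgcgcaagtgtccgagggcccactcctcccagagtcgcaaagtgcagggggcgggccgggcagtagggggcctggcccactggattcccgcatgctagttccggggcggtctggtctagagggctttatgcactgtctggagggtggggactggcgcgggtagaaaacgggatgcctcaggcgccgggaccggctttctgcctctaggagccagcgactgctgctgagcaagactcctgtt
Glyat: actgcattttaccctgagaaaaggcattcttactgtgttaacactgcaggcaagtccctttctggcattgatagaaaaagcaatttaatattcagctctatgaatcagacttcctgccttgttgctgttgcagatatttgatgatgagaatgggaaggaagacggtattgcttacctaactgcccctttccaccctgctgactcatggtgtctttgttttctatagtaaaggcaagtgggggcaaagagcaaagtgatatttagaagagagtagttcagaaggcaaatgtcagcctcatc
Keg1: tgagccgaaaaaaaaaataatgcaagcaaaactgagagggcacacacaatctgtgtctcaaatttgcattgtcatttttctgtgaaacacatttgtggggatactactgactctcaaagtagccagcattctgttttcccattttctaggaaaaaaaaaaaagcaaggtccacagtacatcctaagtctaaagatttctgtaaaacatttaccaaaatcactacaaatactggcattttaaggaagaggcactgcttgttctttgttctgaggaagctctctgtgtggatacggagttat
Cdhr2: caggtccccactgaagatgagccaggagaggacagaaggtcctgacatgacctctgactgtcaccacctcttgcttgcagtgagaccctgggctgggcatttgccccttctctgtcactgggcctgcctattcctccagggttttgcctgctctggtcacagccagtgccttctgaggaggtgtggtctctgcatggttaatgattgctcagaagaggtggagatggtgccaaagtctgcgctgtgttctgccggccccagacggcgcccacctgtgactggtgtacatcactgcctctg
Pdzk1: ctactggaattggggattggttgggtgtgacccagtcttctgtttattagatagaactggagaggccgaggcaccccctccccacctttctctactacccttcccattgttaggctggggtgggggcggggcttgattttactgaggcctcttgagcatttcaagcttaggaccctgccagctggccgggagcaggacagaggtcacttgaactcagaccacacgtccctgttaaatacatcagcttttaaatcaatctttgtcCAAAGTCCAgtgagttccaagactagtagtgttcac

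Of 32851 promoter windows of the same length, 0.475% hold CAAAGTCCA. Windows were given for 37 of the 42 listed genes. CAAAGTCCA stands in 1 of these genes, Pdzk1, which is among the 16 lower members, all with a window. Pdzk1 has another window, at chr3:96831921-96832220, without a match. The share is per window and the count per gene, and some genes have more than 1 window. A match describes the letters only.

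Megalin, its partners and its adaptor were all lower in GFP-high cells, 4 of 4 members, where 11.2% of all genes were lower. Lrp2 encodes megalin, and read 6.41 (kidney A) and 6.47 (kidney B) in GFP-high against 9.10 (kidney B) and 9.50 (kidney D) in GFP-negative cells, 7.25-fold lower (difference -2.86, SE 0.160, limma adjusted p = 3.83e-05). The groups stood more than 2 log2 units apart, with kidney D the higher of the GFP-negative arrays. Dab2 encodes the clathrin adaptor that binds the tail of megalin. It read 6.87 and 7.06 against 10.11 and 10.14, 8.93-fold lower (difference -3.16, SE 0.129, limma adjusted p = 1.69e-05). The GFP-negative arrays nearly coincided for this gene.

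Cubn and Amn encode the 2 parts of the cubilin receptor, the ligand-binding protein and the membrane anchor amnionless. Cubn read 3.60 and 3.95 in GFP-high cells, both within background, against 5.0 and 5.79 (difference -1.62, SE 0.258, limma adjusted p = 0.00429). Amn read 4.65 and 4.45 against 5.41 and 5.67 (difference -0.99, SE 0.147, limma adjusted p = 0.00304). Neither gene's groups overlapped. Cubn lost its call without high-A (adjusted p = 0.162) or high-B (0.105), and Amn without high-A (0.0674), high-B (0.0867) or negative-D (0.0631).

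The shared endocytic machinery was counted next. Of 22 genes listed for clathrin, its AP-2 adaptor, early and recycling endosomes and the megalin chaperone, 21 were measured, 2 were lower, 1 was higher and 18 did not pass, shares near those of all genes (11.2% lower, 8.08% higher and 15200 of 18820 not passing). Fcgrt, the neonatal Fc receptor that recycles albumin and IgG, fell 3.91-fold (7.17 against 9.13, limma adjusted p = 9.52e-05). Lrpap1, the chaperone of megalin, stood at 9.49 against 10.29 (limma adjusted p = 0.0385), and Ap2b1, a subunit of the clathrin adaptor, at 10.46 against 9.97 (limma adjusted p = 0.0393). Of the 4 fits with 1 array fewer, Lrpap1 passed in that without high-B (adjusted p = 0.0339, otherwise 0.142 to 0.284) and Ap2b1 in none (0.101 to 0.246).

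**Figure D1:**
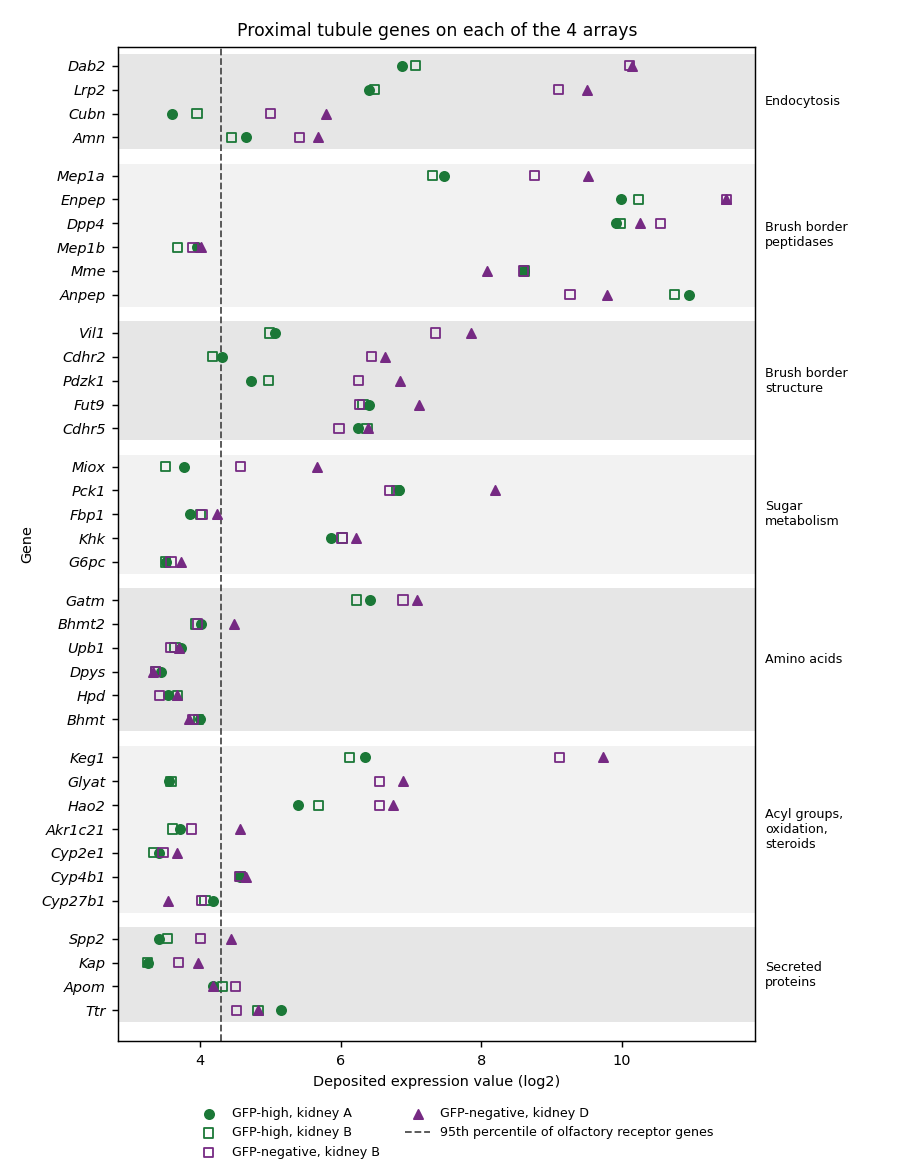
Deposited log2 value (horizontal axis) of each of the 37 measured members (rows, grouped by role) on the 4 arrays: green for GFP-high (circle kidney A, open square kidney B), purple for GFP-negative (open square kidney B, triangle kidney D). The dashed line at 4.30 is the 95th percentile of olfactory receptor genes. For Lrp2 and Dab2 the green and purple marks are well apart, for Anpep they are in the opposite order, and many amino acid genes lie left of the line on all arrays.

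The brush border split by gene. Among 5 measured structural members, 3 fell and 2 did not pass, and among 6 measured peptidases 2 fell, 1 rose and 3 did not pass. The shares over all genes were 11.2% lower and 8.08% higher. Vil1, the actin bundler villin, read 5.07 and 4.99 in GFP-high cells against 7.34 and 7.84, 5.92-fold lower (difference -2.57, SE 0.179, limma adjusted p = 9.01e-05). Cdhr2, a protocadherin of the links between microvillus tips, read 4.31 and 4.18 against 6.44 and 6.63 (difference -2.29, SE 0.133, limma adjusted p = 4.24e-05). The mean of Cdhr2 in GFP-high cells lay within background.

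Cdhr5, the partner of Cdhr2 in the tip links, did not pass. It read 6.25 and 6.37 in GFP-high cells against 5.97 and 6.39, so the groups overlapped (difference 0.13, SE 0.165). Pdzk1, the scaffold that gathers transporters under the brush border, read 4.72 and 4.97 against 6.26 and 6.84 (difference -1.70, SE 0.206, limma adjusted p = 0.00116), without overlap. Its call was lost without high-A (adjusted p = 0.0943) or high-B (0.0691). Fut9, a fucosyltransferase that makes the Lewis x sugar, overlapped, at 6.40 and 6.32 against 6.26 and 7.12.

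Anpep, aminopeptidase N, was the single member that rose. It read 10.95 and 10.74 in GFP-high cells against 9.26 and 9.78, 2.50-fold higher (difference 1.32, SE 0.189, limma adjusted p = 0.00257). Both GFP-high arrays lay above both others, though the call was lost without high-A (adjusted p = 0.12) or high-B (0.0883). Enpep, aminopeptidase A, which cuts angiotensin II, went the other way at 9.98 and 10.24 against 11.48 and 11.48 (difference -1.37, SE 0.136, limma adjusted p = 0.000442). The GFP-negative arrays gave the same value to 2 decimals, well above both GFP-high arrays.

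Meprins are metalloproteases of the brush border with an alpha and a beta subunit. Mep1a, the alpha subunit gene, read 7.46 and 7.31 against 8.75 and 9.51, 3.36-fold lower (difference -1.75, SE 0.238, limma adjusted p = 0.00205). Without high-A or high-B its adjusted p was 0.11 or 0.112. Mep1b, the beta subunit gene, stayed within background in both fractions at means of 3.82 and 3.96. Mme, neprilysin, had means of 8.61 and 8.34, and Dpp4, dipeptidyl peptidase 4, had 9.95 and 10.40 (limma adjusted p = 0.383 and 0.0671). Dpp4 was lower on both GFP-high arrays (9.92 and 9.97 against 10.55 and 10.26) and passed with quantile normalization (adjusted p = 0.0441) and with a trended robust variance (0.019).

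Of 16 further genes of the microvillus listed, 15 were measured, 7 were lower and 2 higher, against 11.2% and 8.08% of all genes. Ace, angiotensin-converting enzyme, fell 5.42-fold, Alpl, alkaline phosphatase, 5.21-fold and Myo7b, the motor of the tip links, 4.75-fold. The 2 that rose were the actin organisers Cobl, 2.79-fold, and Pls1, 2.42-fold, the latter named after its values were seen. With high-A or high-B left out, adjusted p was 0.0746 and 0.0663 for Ace, 0.0588 and 0.064 for Alpl, 0.166 and 0.128 for Pls1, and, for high-A, 0.0501 for Cobl. Of the 7 lower genes 2 passed in each of the 4 fits with 1 array fewer.

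Both glycine conjugation genes of the list fell. Keg1, a kidney gene of the glycine N-acyltransferase family, read 6.35 and 6.12 in GFP-high cells against 9.11 and 9.72, 9.08-fold lower (difference -3.18, SE 0.209, limma adjusted p = 7.26e-05). Glyat, the family's mitochondrial enzyme that joins benzoate and other acids to glycine, read 3.56 and 3.58, within background, against 6.55 and 6.89 (difference -3.14, SE 0.149, limma adjusted p = 2.19e-05). For both genes the fractions stood more than 2 log2 units apart.

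Glyat and Keg1 lie close together on chromosome 19, and their neighbours were looked up after these values had been seen. In RefSeq order the protein-coding genes are Gm4952, Glyat, Olfr1442, Olfr1443 and Keg1. Gm4952 read 4.37 and 4.35 against 4.31 and 4.32, and the olfactory receptor genes Olfr1442 and Olfr1443 had differences of 0.17 and 0.03. Further out, Fam111a, Dtx4, Mpeg1, Lpxn and Olfr1444 had differences of 0.33, -0.37, -0.26, 0.14 and 0.28. None of these 8 measured neighbours passed, as was so for 15200 of 18820 genes. Olfr1442, Olfr1443, Olfr1444 and Mpeg1 were within background in both fractions, with group means between 2.68 and 4.14. Gm4952 and Lpxn lay just above background, with group means between 4.31 and 4.53. For these genes the count cannot tell whether they fell too, since a fall could hardly be measured from such levels. Dtx4 had means of 7.28 and 7.65, and Fam111a of 6.51 and 6.18. Cntf and Zfp91 had no probe set of their own here.

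Hao2, a peroxisomal oxidase of hydroxy acids, read 5.39 and 5.68 against 6.56 and 6.74 (difference -1.12, SE 0.149, limma adjusted p = 0.00188). Its call was lost without high-A (adjusted p = 0.063) or negative-D (0.0575). The other 4 measured genes of this group did not pass. Cyp27b1, which makes active vitamin D, was within background at means of 4.13 and 3.78, as were Cyp2e1, a drug-oxidising P450, and the steroid dehydrogenase gene Akr1c21. Akr1c21 was higher on negative-D (4.57) than on the other arrays (3.61 to 3.88), and passed without negative-B (difference -0.91, adjusted p = 0.0457). Cyp4b1, another P450, read 4.56 to 4.66 on all 4 arrays.

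**Figure D2:**
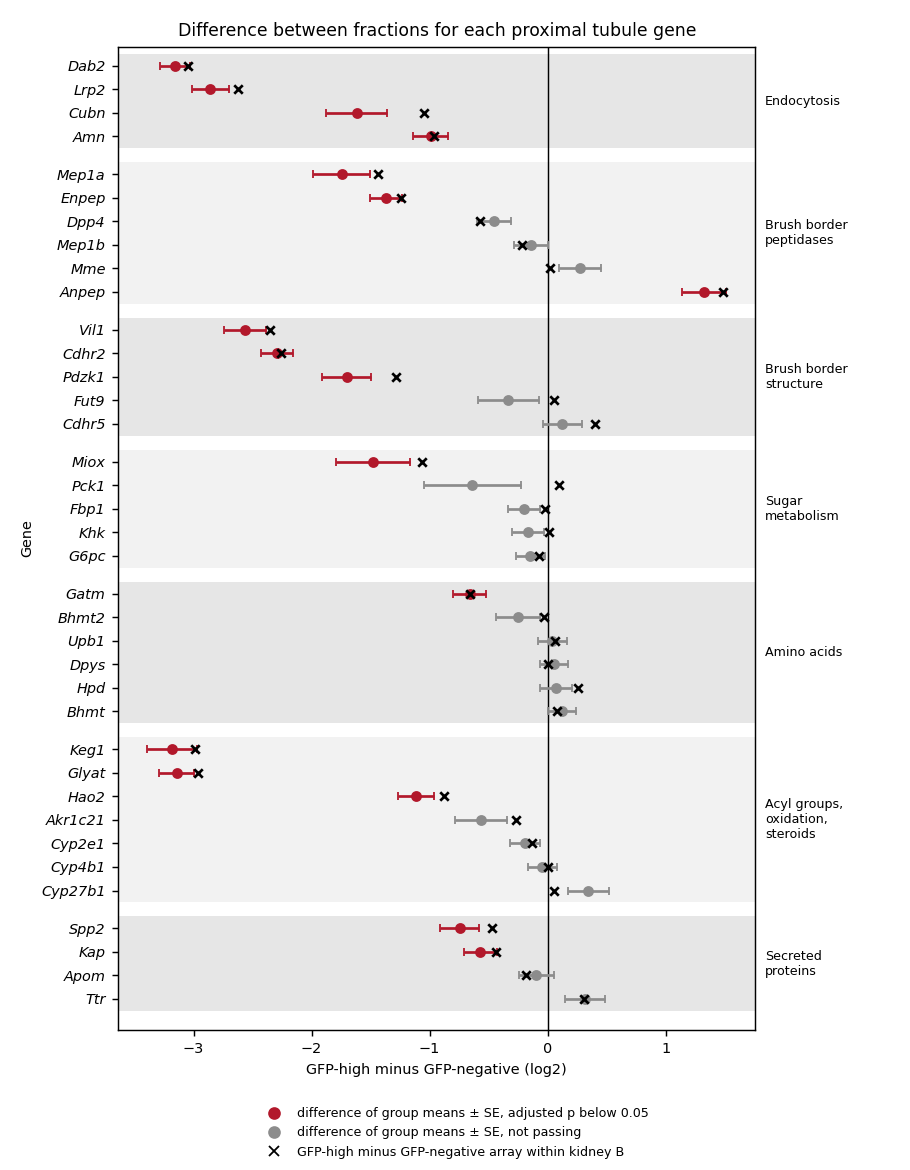
Difference of GFP-high minus GFP-negative on the log2 scale (horizontal axis) for each measured member (rows, grouped by role), as circles with the standard error, red where the adjusted p was below 0.05. Crosses give the difference of the 2 arrays of kidney B alone. The crosses lie on the same side of 0 as the circles for every red gene, and Anpep alone is red on the right.

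Of 5 genes of sugar metabolism and gluconeogenesis, 1 was lower and 4 did not pass, where 11.2% of all genes were lower. Miox, which opens the ring of inositol, read 3.77 and 3.51 in GFP-high cells, within background, against 4.58 and 5.66 (difference -1.48, SE 0.317, limma adjusted p = 0.016). Of the fits with 1 array fewer it passed in that without negative-B (adjusted p = 0.0126). Without negative-D the difference was -0.94 (adjusted p = 0.0611), and without high-A or high-B adjusted p was 0.211 or 0.24.

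Pck1, the gate enzyme of gluconeogenesis, turned on a single array. It read 6.83 on high-A, 6.79 on high-B, 6.70 on negative-B and 8.19 on negative-D (difference -0.64, SE 0.414, limma adjusted p = 0.373). Without negative-B the difference was -1.39 (adjusted p = 0.0165), and without negative-D it was 0.11 (0.752). Fbp1 and G6pc, the later steps of the same route, were within background in both fractions, with group means of 3.93 and 4.13 for Fbp1 and 3.51 and 3.66 for G6pc. Khk, which starts fructose breakdown, had means of 5.95 and 6.12 with overlapping groups.

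Of 6 measured amino acid and pyrimidine genes, 1 was lower, against 11.2% of all genes, and 5 were within background in both fractions. Gatm, which makes guanidinoacetate for creatine, read 6.42 and 6.22 against 6.88 and 7.08 (difference -0.66, SE 0.138, limma adjusted p = 0.0146), without overlap, but did not pass with any 1 array left out (adjusted p 0.0853 to 0.151). Hpd (tyrosine breakdown), Dpys and Upb1 (pyrimidine breakdown), and the betaine-homocysteine methyltransferase genes Bhmt and Bhmt2 had group means between 3.35 and 4.22. A further probe set of Bhmt read 2.94 against 2.87.

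Among the secreted proteins, 2 of 4 were lower (11.2% of all genes), Spp2 and Kap, each with both group means within background. Spp2, a secreted phosphoprotein gene, read 3.42 and 3.54 against 4.01 and 4.44 (difference -0.75, SE 0.167, limma adjusted p = 0.0194). Kap, an androgen-regulated gene of the mouse proximal tubule, read 3.26 and 3.25 against 3.69 and 3.96 (difference -0.57, SE 0.139, limma adjusted p = 0.027). Their groups did not overlap, but Kap did not pass with any 1 array left out (adjusted p 0.0716 to 0.19), and of these fits Spp2 passed in that without negative-B (0.0409, otherwise 0.143 to 0.224). Kap also missed the threshold with median-centred arrays (0.054). Ttr (transthyretin) and Apom (the lipocalin of HDL), both ligands that megalin recovers, had means of 4.99 and 4.67, and of 4.25 and 4.34, with overlapping groups.

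The 5 members without a probe set of their own were read only where another annotation allowed it. Tmem27, collectrin, which brings amino acid transporters to the brush border, is listed under its other symbol Cltrn and read 8.12 and 8.07 against 8.08 and 8.39 (limma adjusted p = 0.584). Ass1, argininosuccinate synthase, shares its 2 probe sets with Gm5424, so signal from the 2 genes cannot be told apart. These read 6.62 and 6.71 against 8.35 and 8.79, and 6.44 and 6.56 against 8.14 and 8.66, a difference of -1.90 for each, and were not in the test. Probe sets shared by Acsm3 and Eri2 had differences of -0.41 and 0.33, and those that name Gsta2 with Gsta1 and others lay between -0.46 and 0.02. Ggt1 was not analysed here.

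**Figure D3:**
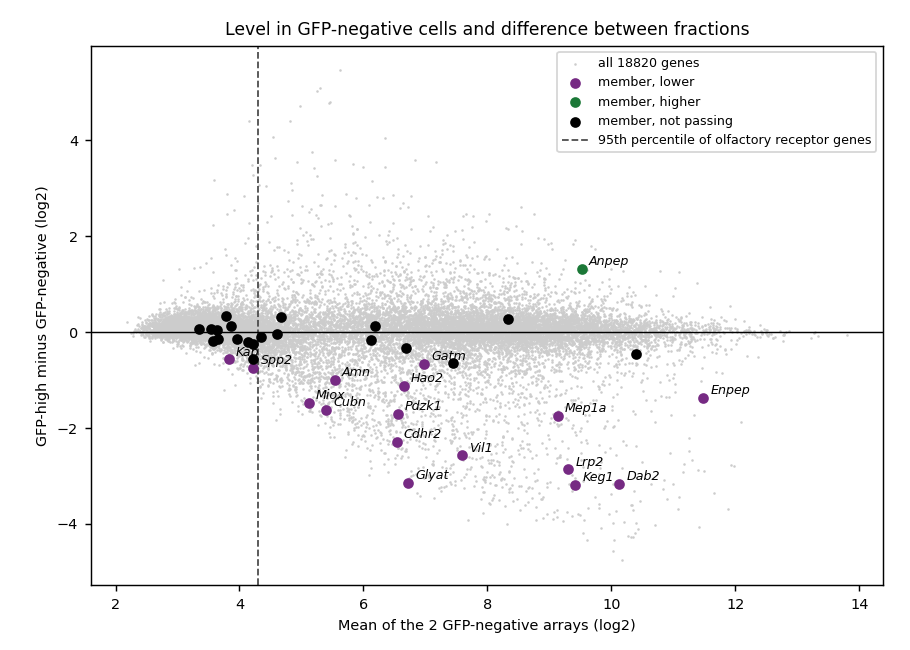
Mean of the 2 GFP-negative arrays (log2, horizontal axis) against GFP-high minus GFP-negative (log2, vertical axis) for all genes (grey) and for members that were lower (purple), higher (green) or did not pass (black). Members left of the dashed background line at 4.30 lie between -0.75 and 0.34, and Keg1, Dab2 and Lrp2 lie lower down on the right.

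By level, 13 of the 37 members were within background in both fractions, 11 of them among those that did not pass, and 5 more were within background in GFP-high cells alone. Cubn, Cdhr2, Glyat, Miox and Apom are these 5, so their folds run from a level within background. For members within background in both fractions, a difference in RNA could not be measured reliably.

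The GFP-negative arrays differed from each other. Negative-D read above negative-B in 30 of 37 members, and in 15 of the 16 lower members, Enpep being the exception. The median gap was 0.25, against -0.02 over all genes, where 8724 of 18820 were higher on negative-D. Podocyte markers ran the other way, with negative-B above negative-D in 5 of 5 measured. Each is a single array, so these gaps have no test. Within kidney B, which gave 1 array of each fraction, 24 of 37 members read lower in GFP-high cells, with a median of -0.22. Over all genes 8380 of 18820 did, with a median of 0.03. Within this kidney Lrp2 differed by -2.62, Dab2 by -3.04, Vil1 by -2.35, Keg1 by -2.99 and Glyat by -2.96.

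Other genes of the proximal tubule were counted from lists written down with earlier results of these arrays known. Of 28 measured transporters of this segment 18 were lower, 2 higher and 8 did not pass, with a median difference of -1.02. The shares over all genes were 11.2% lower and 8.08% higher. Slc34a1 (phosphate) fell 20.2-fold, Slc6a18 (amino acids) 8.68-fold, Slc23a1 (vitamin C) 7.01-fold and Slc27a2 (fatty acids) 6.53-fold. Named after their values were seen, the 2 that rose were Slc9a3, the sodium-proton exchanger also found in the thick ascending limb, at 6.46 against 3.92, and Slc6a19, an amino acid transporter gene, at 4.81 against 3.91. With high-A or high-B left out, adjusted p was 0.0834 and 0.0593 for Slc6a18, 0.0672 and 0.0528 for Slc23a1 and 0.121 and 0.136 for Slc6a19, which had 0.0845 without negative-B. Of the 18 lower transporters 5 passed in each of the 4 fits with 1 array fewer.

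Of 22 further enzymes measured, 8 were lower and 14 did not pass, where 11.2% of all genes were lower. Dao, D-amino acid oxidase, fell 12-fold (4.45 against 8.04). Acsm2, an acyl-CoA synthetase gene, fell from 6.77 in GFP-negative cells, Agxt2, a mitochondrial aminotransferase gene, from 5.74, and Cyp2j5, a renal P450 gene, from 5.30. With high-A or high-B left out, adjusted p was 0.103 and 0.0593 for Acsm2 and 0.178 and 0.177 for Cyp2j5, and 3 of the 8 lower enzymes passed in all 4 fits with 1 array fewer. In GFP-high cells Acsm2, Agxt2 and Cyp2j5 were within background at 3.87, 3.65 and 3.57, so no fold is given for them.

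Regulators of the segment were mixed, with 3 of 8 measured lower, 1 higher and 4 not passing. Among all genes 11.2% were lower and 8.08% higher. Maf fell 9.03-fold (6.14 against 9.31, limma adjusted p = 4.26e-05). Hnf4a, the nuclear receptor required for proximal tubule formation, read 7.54 and 7.24 against 9.59 and 10.21, 5.69-fold lower (limma adjusted p = 0.000238, and 0.0514 without high-B). Hnf4g stood at 4.23 against 4.98 (limma adjusted p = 0.0341) and passed in none of the fits with 1 array fewer (0.101 to 0.291). Ppargc1a, the coactivator of mitochondrial biogenesis, rose 2.87-fold (9.47 against 7.95, limma adjusted p = 0.000235).

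**Figure D4:**
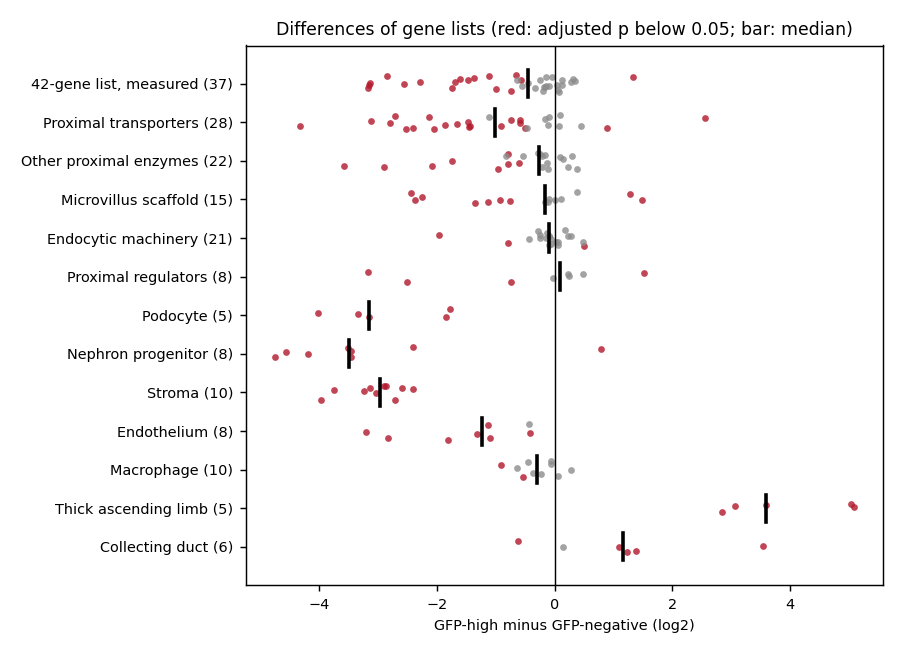
GFP-high minus GFP-negative (log2, horizontal axis) of every measured gene of the 42-gene list, of 5 proximal tubule companion lists and of 7 cell type marker lists (rows, with the number of genes), red where the adjusted p was below 0.05, with the median as a bar. The proximal transporters have a median of -1.02 and the endocytic machinery one of -0.10, while thick ascending limb markers lie to the right of 0.

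Other cell types moved with the same contrast, and several members are also made outside the proximal tubule. Dab2 is also known in macrophages and endothelium, Enpep and Mme in podocytes, and Anpep in myeloid cells. With medians of -3.17 and -2.97, podocyte markers were lower in 5 of 5 and stroma in 10 of 10. With medians of -3.50 and -1.23, nephron progenitor markers were lower in 7 of 8, with 1 higher, and endothelium in 7 of 8, with 1 not passing. Of these, 1 podocyte, 9 stroma, 7 progenitor and 2 endothelium markers passed in all 4 fits with 1 array fewer. The mean log2 value of each list ranged, in GFP-high against GFP-negative cells, over 4.86 to 5.83 against 7.75 to 8.60 in podocytes, 5.98 to 6.09 against 9.04 to 9.15 in stroma, 6.18 to 6.46 against 9.50 to 9.55 in progenitors and 4.44 to 4.47 against 5.80 to 6.19 in endothelium. Of 10 macrophage markers 2 were lower and 8 did not pass, where 11.2% of all genes were lower. Their mean log2 value ran over 4.49 to 4.70 against 4.82 to 4.97. Thick ascending limb markers were higher in 5 of 5 (median 3.59), and collecting duct markers higher in 4 of 6 with 1 lower (median 1.16). The share of all genes that were higher was 8.08%. Only 1 of 5 erythroid markers was measured, Alas2, with a difference of -0.21. The part of these cells in the members' differences was not tested. In sorted bulk RNA, fewer proximal tubule cells and less of a transcript in each of them cannot be told apart.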

How the data were processed

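Total RNA of 4 sorted samples was hybridised to Affymetrix arrays after labelling with the maker's whole-transcript kit, per the labels' protocols. The authors deposited log2 expression values. How probes were corrected, summarised and scaled is not stated in the sources used here. No column of values was left unused (0). Arrays have no read depth, and their number limits the precision.

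Genes were named through the platform annotation. Of 35556 probe sets, 21218 carried 1 gene symbol, 1881 carried more than 1 and 12457 had none here. For 1386 genes with several of them the probe set with the highest mean stood for the gene. Entrez identifiers of all 37 members matched the RefSeq table (GRCm38.p6), used for names and neighbours.

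The 18820 genes were fitted in R 4.3.3 with limma 3.58.1 (lmFit, then eBayes), group as the only term, two-sided, Benjamini-Hochberg threshold 0.05. There were 2 residual degrees of freedom and a prior of 5.11. No dim genes were removed. An exact permutation test of 2 against 2 arrays cannot go below 0.333 and was not used. The fit was tested on simulated data.

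Members, gene lists, alternatives and the naming rule (all members, at most 4 passing genes per companion list by size) were chosen with earlier results of these data known. Groups came from the descriptions in the labels. Tried beside this were a block for the array number, quantile and median scaling, a filter on dim genes, all probe sets, another variance model, kidney B alone, and each array left out.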

Additional observations from a re-analysis of the deposited data

How the results depend on the processing

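With other settings on all 4 arrays the count of lower members stayed between 15 and 17 and 1 was higher. Kap missed the threshold with the array number as a block and with median centring, and was removed before testing by the filter on dim genes, which leaves 27 of the 37 members. Dpp4 was gained with quantile normalization, the trended robust variance and the crossed block. No member that passed changed sign. With 1 array left out, 1 residual degree of freedom remains and the lone array is assumed to vary like the other group. Then 7 to 16 members were lower and 0 to 1 higher, and over all genes 729 to 1148 were lower and 387 to 603 higher, against 2100 and 1520. Lower members numbered 7 when high-A was dropped, 8 for high-B, 16 for negative-B (14 of the original 16, with Pck1 and Akr1c21 added) and 10 for negative-D. Anpep lost its call when high-A or high-B was dropped.

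The numbers in the descriptions do not pair the arrays, since number 1 joins kidneys A and B. Deviations from the group means correlated at -0.198 across genes for arrays of the same number, and the replicate block gave 15 lower members, with 1819 genes lower and 1140 higher. With the pairing crossed (chosen after seeing the data), the arrays of kidney B formed a pair. High-A was then set with negative-D, which carries another kidney letter. This gave 17 lower members, with 2339 genes lower and 1763 higher. Kidney letter as a random block was not run, because its correlation could not be estimated. Signal near background limits 13 members.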
